A study of Homo sapiens with 12 samples.

Results

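DUSP1, DUSP2, DUSP4, DUSP5, DUSP6, DUSP10, SPRY1, SPRY2, SPRED1 and SPRED2 encode brakes on mitogen-activated protein kinase (MAPK) signalling, and their RNA levels were followed here in Hodgkin lymphoma cells exposed to a DNA-demethylating drug. Every probe set whose annotation carries 1 of these 10 symbols alone was taken. All 10 genes were found, on 22 of the 54613 probe sets of the array that are not controls. The gene-level values use 1 probe set for each of 19775 genes, the one with the highest mean over all arrays.

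L428 and L1236 are established cell lines of classical Hodgkin lymphoma. Untreated cells of each line were compared with cells given 1 µM 5-Aza-dC (decitabine, an inhibitor of DNA methyltransferases) for 24 h, then washed and kept in drug-free medium for 72 h before RNA isolation. The design has 4 groups of 3 arrays. The study's title concerns survival pathways that decitabine activates. The labels say that the experiment was done in triplicate but not whether replicates were separate cultures, so p-values measure the spread between these arrays. Each line stands for 1 tumour, and no vehicle control is named.

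ERK is the last kinase of a chain that runs from RAS through RAF and MEK. Active ERK raises transcription of several of its own inhibitors, so their RNA is widely used as a readout of pathway output. The dual-specificity phosphatases (DUSP) remove phosphate from MAP kinases. DUSP6 acts on ERK in the cytoplasm and DUSP5 on ERK in the nucleus. DUSP1, DUSP2 and DUSP4 act in the nucleus on more than 1 kind of MAP kinase, and DUSP10 acts mainly on the stress kinases p38 and JNK. Sprouty (SPRY) and SPRED proteins work higher up, where they hold back RAS and RAF activation. SPRED1 does so with neurofibromin.

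The promoters of 5 of the genes are shown because the drug blocks the methylation of CpG sites. These are the 250 bases before the first listed RefSeq start on GRCh38.p14, 5′ to 3′ on the gene's own strand, with each CpG in capitals. All 5 genes lie on the minus strand: DUSP1 at chr5:172771196-172771445, DUSP2 at chr2:96145441-96145690, DUSP6 at chr12:89352502-89352751, SPRY2 at chr13:80341127-80341376 and SPRED2 at chr2:65432600-65432849.
DUSP1: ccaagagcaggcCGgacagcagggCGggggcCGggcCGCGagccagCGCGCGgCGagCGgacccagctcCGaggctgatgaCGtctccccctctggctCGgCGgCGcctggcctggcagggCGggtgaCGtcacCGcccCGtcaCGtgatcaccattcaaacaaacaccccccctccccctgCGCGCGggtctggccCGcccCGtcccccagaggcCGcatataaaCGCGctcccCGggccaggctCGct
DUSP2: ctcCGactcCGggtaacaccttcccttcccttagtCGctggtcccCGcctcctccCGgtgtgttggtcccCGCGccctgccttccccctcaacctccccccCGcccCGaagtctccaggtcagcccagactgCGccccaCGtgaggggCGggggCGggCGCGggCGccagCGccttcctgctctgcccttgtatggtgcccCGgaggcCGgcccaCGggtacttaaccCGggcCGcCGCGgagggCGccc
DUSP6: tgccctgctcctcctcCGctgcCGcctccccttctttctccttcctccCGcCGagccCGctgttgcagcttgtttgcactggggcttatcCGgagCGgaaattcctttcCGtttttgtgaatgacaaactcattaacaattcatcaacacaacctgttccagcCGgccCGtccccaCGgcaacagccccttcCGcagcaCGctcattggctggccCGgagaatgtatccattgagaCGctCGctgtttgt
SPRY2: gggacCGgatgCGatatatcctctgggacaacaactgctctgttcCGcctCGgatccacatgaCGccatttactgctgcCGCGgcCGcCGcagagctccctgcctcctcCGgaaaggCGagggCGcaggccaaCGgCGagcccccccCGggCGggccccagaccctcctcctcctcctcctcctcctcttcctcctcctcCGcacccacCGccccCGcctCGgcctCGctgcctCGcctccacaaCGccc
SPRED2: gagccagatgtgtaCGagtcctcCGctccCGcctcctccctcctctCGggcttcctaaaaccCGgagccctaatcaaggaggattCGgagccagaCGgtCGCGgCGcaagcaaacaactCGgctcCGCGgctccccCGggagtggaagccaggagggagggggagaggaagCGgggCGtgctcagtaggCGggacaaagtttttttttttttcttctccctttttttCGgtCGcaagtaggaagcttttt

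The promoter sequences used here covered 8 of the 10 genes, with 13 listed starts, and not DUSP4 and DUSP5. The window before the first start held 30 CpG sites in DUSP1, 25 in DUSP2, 16 in DUSP6, 18 in DUSP10, 8 in SPRY1, 23 in SPRY2, 30 in SPRED1 and 19 in SPRED2. The median over 27305 RefSeq promoters was 11 (quartiles 3 and 23), and 7 of the 8 genes were above it. The ratio of observed to expected CpG had a median of 0.84 in the 8 genes and 0.56 in all promoters. The cyclic AMP response element TGACGTCA, searched on both strands, was present in 1 of the 8 windows, 125 bases before the DUSP1 start, and in 1.77% of all promoters. The AP-1 pattern TGANTCA and the CArG box were in none of the 8 windows, against 6.6% and 1.14% of all promoters. Methylation was not measured on these samples.

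Array medians lay between 3.01 and 3.09 and single values between 0.66 and 16.62, on a log2 scale. Values of 2 to 3 are at the low end, and a fold change that starts there is uncertain in size. The first treated array of each line stood apart: its deviation from the group means had an SD of 0.449 in L428 and 0.384 in L1236, against 0.156 to 0.315 on the other 10 arrays. The first treated L428 array correlated best with an untreated L428 array (r = 0.9891 over genes). The source name of the first untreated L1236 array describes treated L428 cells, while its description gives untreated L1236, and its values correlated best with another untreated L1236 array. Of 7 Hodgkin markers, TNFRSF8 (CD30) read 10.39 ± 0.38 in untreated L428 and 9.57 ± 0.16 in untreated L1236 (log2 signal, SD, n = 3). IRF4 read 11.26 ± 0.49 and 11.72 ± 0.18, FSCN1 14.36 and 10.81, and CD40 9.42 and 11.73. CCL17 read 13.83 and 11.9, and FUT4 8.95 and 9.43. Of 5 measured B-cell markers, MS4A1 read 2.55 in untreated L428 and 2.52 in untreated L1236, CD79A 3.60 and 3.53, CD79B 4.13 and 4.30, CD22 4.45 and 5.12, and PAX5 5.32 and 11.78. TRAF1, also on the Hodgkin list, read 11.49 in untreated L428 but 2.10, at the low end of the scale, in untreated L1236.

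**Figure D1:**
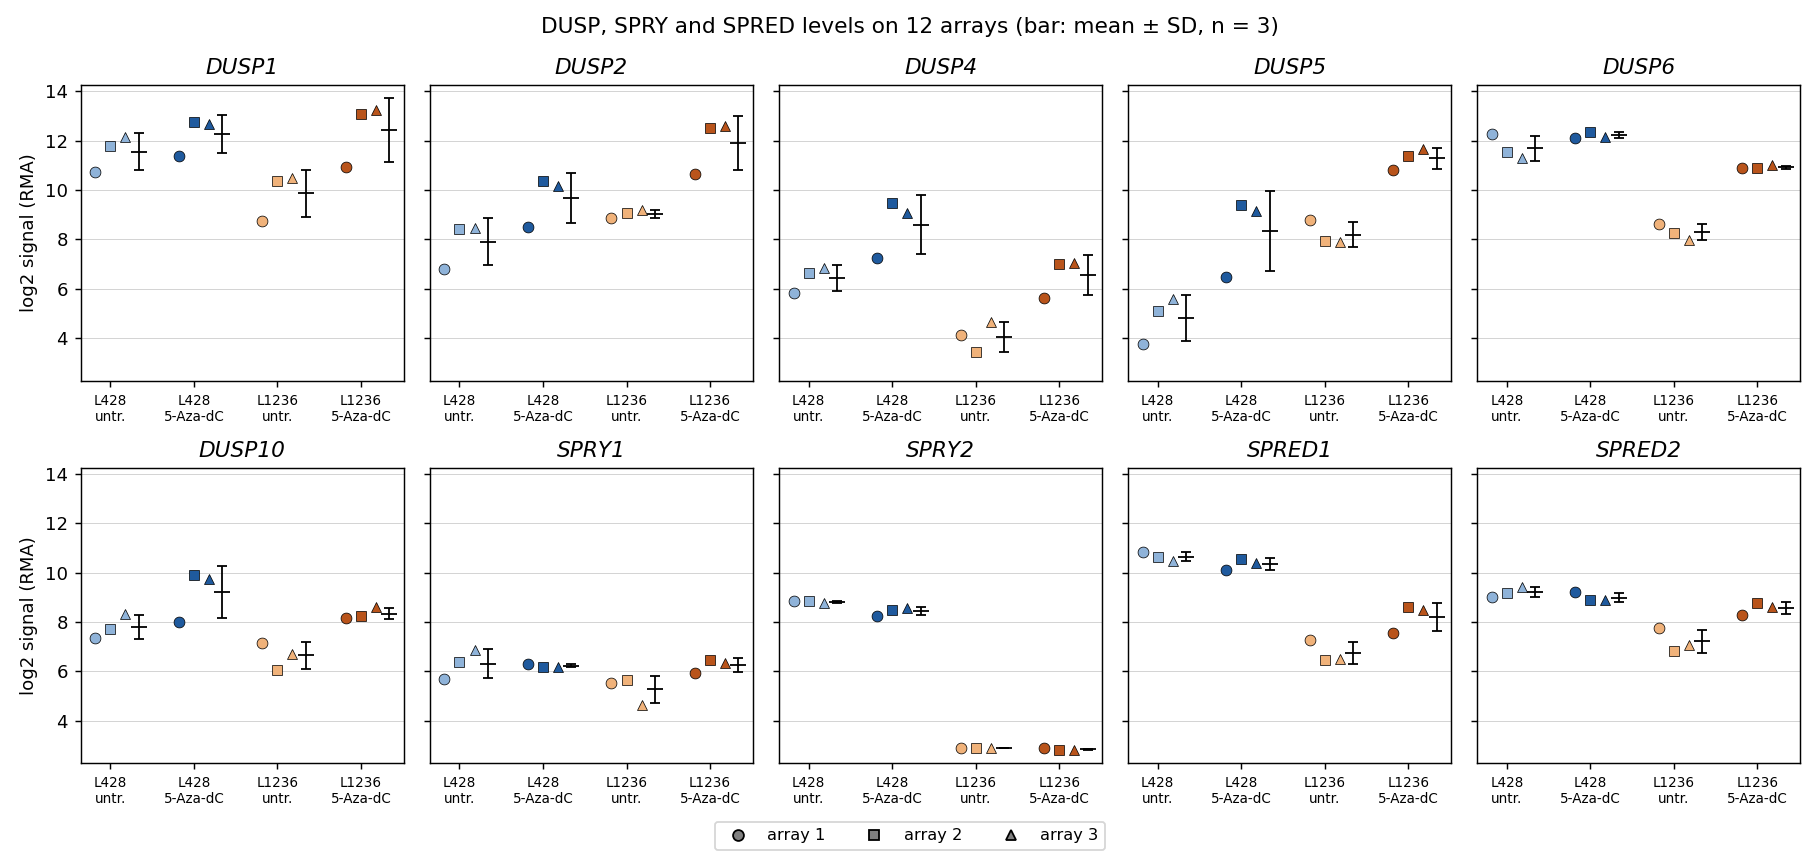
RMA log2 signal of the 10 genes on all 12 arrays, with 1 panel per gene, 1 point per array and a bar for the mean ± SD (n = 3). SPRY2 read 8.25 to 8.86 on the 6 L428 arrays and 2.83 to 2.92 on the 6 L1236 arrays, while DUSP5 was lowest in untreated L428 (3.78 to 5.57) and highest in treated L1236 (10.82 to 11.67).

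Before any drug the 2 lines differed in most of these genes, and untreated L1236 had the lower level in most of them. In limma's moderated test over all 19775 genes, 6 of the 10 were lower in L1236 (DUSP4, DUSP6, SPRY1, SPRY2, SPRED1 and SPRED2) and DUSP5 was higher. The share of all genes called at an adjusted p under 0.05 was 28.8%, with 15.2% higher and 13.6% lower in L1236. The median log2 difference, L1236 minus L428, was -1.845 over the 10 genes and -0.016 over all genes.

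SPRY2, the Sprouty protein that restrains RAS activation by receptor kinases, separated the lines most widely. Its log2 signal was 8.86, 8.84 and 8.76 on the untreated L428 arrays and 2.92 on each of the 3 untreated L1236 arrays. The L1236 values sit at the low end of the scale, so the log2 difference of -5.90 ± 0.07 (SE, adjusted p = 5.93e-11, limma) gives its size only roughly. It has 1 probe set.

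SPRED1 read 10.84, 10.65 and 10.47 in untreated L428 and 7.26, 6.47 and 6.52 in untreated L1236. The groups were far apart, by a log2 difference of -3.90 ± 0.31 (SE, adjusted p = 1.23e-05, limma). Its 3 probe sets all passed the test over probe sets, with differences from -3.90 to -3.10. SPRED2, the related inhibitor of RAF activation, read 9.01, 9.19 and 9.42 against 7.74, 6.82 and 7.09, a difference of -1.99 ± 0.23 (SE, adjusted p = 0.000169, limma). Its dimmer probe sets 212466_at and 214026_s_at differed by -0.61 and -0.01 and were not called. SPRY1 showed the smallest called difference, with 5.69, 6.39 and 6.88 against 5.52, 5.67 and 4.66. Its groups did not overlap, but the log2 difference of -1.04 ± 0.33 (SE) passed the test narrowly (adjusted p = 0.045, limma). It was no longer called when any of 10 of the 12 arrays was left out (adjusted p 0.05 to 0.15, all but untreated L428 array 1 and untreated L1236 array 2), nor with the replicate number as a block (0.0649).

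DUSP6, the cytoplasmic ERK phosphatase, read 12.26, 11.53 and 11.28 in untreated L428 and 8.63, 8.26 and 7.96 in untreated L1236. That is 10.6-fold lower in L1236 (log2 -3.40 ± 0.24, SE, adjusted p = 6.31e-06, limma), and all 3 of its probe sets were called, from -3.41 to -3.04. DUSP4, a nuclear MAP kinase phosphatase, read 5.83, 6.63 and 6.84 in untreated L428 and 4.12, 3.43 and 4.65 in untreated L1236, again without overlap. The difference of -2.37 ± 0.64 (SE) had an adjusted p of 0.021 (limma), rising to between 0.054 and 0.0779 when untreated L428 array 2 or 3, or untreated L1236 array 1 or 2, was left out. Of the 2 dimmer DUSP4 probe sets, one differed by -0.83 and the other by -0.01, and neither was called.

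DUSP5, the nuclear ERK phosphatase, ran the other way. It read 3.78, 5.10 and 5.57 in untreated L428 and 8.78, 7.92 and 7.89 in untreated L1236, 10.4-fold higher in L1236 (log2 3.38 ± 0.77, SE, adjusted p = 0.00866, limma). The lowest L1236 array was above the highest L428 array by more than the range of either group. DUSP1, DUSP2 and DUSP10 were not called. DUSP1 had a difference of -1.70 ± 0.75 (adjusted p = 0.141, limma), DUSP2 of 1.13 ± 0.69 (0.314) and DUSP10 of -1.15 ± 0.50 (0.136). With the replicate number as a block, the DUSP1 and DUSP2 differences were called (adjusted p = 0.000772 and 0.0402). The DUSP10 difference was called without the first treated L428 array (0.0237). None of the 10 genes overlapped between the untreated lines, with 2 above and 8 below in L1236. Over all genes 41.3% did not overlap, 20.3% above and 21% below.

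In L428, the RNA of DUSP5 was higher after 5-Aza-dC and that of SPRY2 slightly lower, and the other 8 genes did not pass the test. In bulk RNA, a higher level per cell cannot be told apart from a larger share of cells that express the gene. Of all genes, 4.65% were called in this line, 3.32% higher and 1.34% lower. All 6 DUSP changes were above 0, with a median log2 change of 1.59 (0.52 to 3.52), and all 4 SPRY and SPRED changes were below 0, with a median of -0.26 (SPRY1 was at 0.19 without untreated L428 array 3). The median over all genes was -0.02. Groups did not overlap in 4 of the 10 genes, with treated arrays above in DUSP2, DUSP4 and DUSP5 and below in SPRY2, against 9.21% of all genes above and 8.67% below.

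DUSP5 rose from 3.78, 5.10 and 5.57 to 6.48, 9.39 and 9.15, with every treated array above every untreated one. The log2 change was 3.52 ± 0.77 (SE, adjusted p = 0.0368, limma), or 11.5-fold. That call was lost without any 1 of 10 arrays (adjusted p 0.0521 to 0.15) and held without either first treated array. The block on replicate number gave 0.0347.

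DUSP4 went from 5.83, 6.63 and 6.84 to 7.23, 9.48 and 9.06. The treated arrays lay above the untreated ones, but the change of 2.16 ± 0.64 (SE) missed the threshold (adjusted p = 0.101, limma). DUSP2, a nuclear phosphatase of activated lymphocytes, went from 6.81, 8.43 and 8.48 to 8.51, 10.37 and 10.17, a change of 1.78 ± 0.69 (SE, adjusted p = 0.192, limma), and its groups were barely separate. In both genes array 1 was the lowest of its group, untreated and treated alike. The treated minus untreated differences between arrays of the same number were 1.69, 1.94 and 1.69 for DUSP2 and 1.41, 2.85 and 2.21 for DUSP4. With the replicate number as 1 block shared by all 4 groups, L1236 included, both genes were called higher (adjusted p = 0.0316 and 0.0482, limma). In that setting 4 of the 10 genes were called in all, with 5.71% of all genes. With a separate block in each line, chosen after the data were seen, neither was (0.0669 and 0.0802), and DUSP5 alone of the 10 genes was (0.0304).

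DUSP10, the stress-kinase phosphatase, read 7.37, 7.73 and 8.32 before and 8.01, 9.89 and 9.76 after the drug. Only the first treated array lay within the untreated range, and the change of 1.41 ± 0.50 (SE) was not called (adjusted p = 0.159, limma). DUSP1, an immediate-early phosphatase, read 10.72, 11.78 and 12.16 before and 11.39, 12.76 and 12.68 after. The groups overlapped, at 0.72 ± 0.75 (SE, adjusted p = 0.636, limma). DUSP6 was already high in this line and read 12.26, 11.53 and 11.28 before and 12.12, 12.35 and 12.16 after. Its change was 0.52 ± 0.24 (SE, adjusted p = 0.281, limma), with a 95% interval from -0.03 to 1.07. Without untreated L428 array 1, the highest untreated array, it was 0.80 (adjusted p = 0.0407).

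SPRY2 fell by 0.38 ± 0.07 (SE, adjusted p = 0.0194, limma), a 1.3-fold decrease. Its arrays read 8.86, 8.84 and 8.76 before and 8.25, 8.5 and 8.56 after, close together and without overlap. It was called in 17 of 22 alternative settings. The call was lost without untreated L428 array 2 (adjusted p = 0.0735), with a block in each line (0.0777), without dim genes, with a moderation trend and with only the compared groups. SPRY1 read 5.69, 6.39 and 6.88 before and 6.31, 6.20 and 6.19 after. Its treated arrays all fell inside the untreated range (change -0.08 ± 0.33, SE, adjusted p = 0.908, limma). SPRED1 changed by -0.30 ± 0.31 (adjusted p = 0.629, limma), from 10.84, 10.65 and 10.47 to 10.11, 10.55 and 10.39. SPRED2 changed by -0.22 ± 0.23 (adjusted p = 0.641, limma), from 9.01, 9.19 and 9.42 to 9.20, 8.89 and 8.88. None of the 4 was higher by the test, also at an unadjusted p under 0.05 (0 of 4).

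The first treated L428 array was the lowest of its group for DUSP1, DUSP2, DUSP4, DUSP5, DUSP6 and DUSP10. Without that array 5 of the 10 genes were called in L428, adding DUSP2 (adjusted p = 0.0448), DUSP4 (0.00844) and DUSP10 (0.00608, limma), while the share of all genes called went from 4.65% to 17.9%. Without the 4 arrays numbered 1, all 6 DUSP genes were called higher and SPRY2 lower, in a setting where 28.9% of all genes were called. Without untreated L428 array 2, on the other hand, 0 of the 10 genes were called (limma), with 2.39% of all genes, and 4 of the 10 had an unadjusted p under 0.05. SPRY2 alone was called without each of 8 other arrays.

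In L1236 the drug was followed by higher RNA of most of these genes. Called higher were 6 of the 10 (DUSP2, DUSP4, DUSP5, DUSP6, SPRED1 and SPRED2) and none was lower, also at an unadjusted p (9 higher, 0 lower). Of all genes, 14.9% were called, 8.59% higher and 6.35% lower. The median log2 change was 2.09 over the 10 genes and -0.029 over all genes. The treated arrays did not overlap the untreated ones in any of the 10 genes, above in 9 and below in SPRY2, against 57.3% of all genes (15.8% above and 41.5% below).

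DUSP6 read 8.63, 8.26 and 7.96 before and 10.90, 10.90 and 11.01 after the drug. Every treated array was far above every untreated one, and the change was 2.65 ± 0.24 (SE, adjusted p = 0.000208, limma), or 6.27-fold. It was called in all 22 alternative settings tried. Treated L1236 arrays (10.90 to 11.01) still read below untreated L428 arrays (11.28 to 12.26), a pair of groups that was not tested.

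DUSP5 rose from 8.78, 7.92 and 7.89 to 10.82, 11.38 and 11.67, by 3.09 ± 0.77 (SE, adjusted p = 0.028, limma), or 8.52-fold. The order of its groups was therefore untreated L428, untreated L1236 or treated L428, and treated L1236: untreated L1236 at 8.20 ± 0.51 and treated L428 at 8.34 ± 1.61 (SD, n = 3) overlapped. DUSP2 rose from 8.85, 9.07 and 9.18 to 10.66, 12.52 and 12.58, by 2.89 ± 0.69 (SE, adjusted p = 0.0241, limma). Its untreated arrays were tight and its first treated array lay well below the other two. DUSP4 rose from 4.12, 3.43 and 4.65 to 5.63, 7.01 and 7.04, by 2.50 ± 0.64 (SE, adjusted p = 0.0322, limma). On this probe set treated L1236 read 6.56 ± 0.81 and untreated L428 6.43 ± 0.53 (SD, n = 3), a pair of groups that was not tested. On the dimmer 204014_at and 226034_at treated L1236 read 4.95 and 3.03, and untreated L428 4.16 and 1.92.

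DUSP1 read 8.73, 10.37 and 10.47 before and 10.93, 13.07 and 13.25 after. The groups were separate and array 1 was the lowest of each, and the change of 2.56 ± 0.75 (SE) missed the threshold narrowly (adjusted p = 0.0519, limma). Without the first treated L1236 array it was 3.31 (adjusted p = 0.00949), and without the first treated L428 array 2.56 (0.0435). DUSP10 read 7.17, 6.07 and 6.72 before and 8.17, 8.25 and 8.60 after, again without overlap, at 1.69 ± 0.50 (SE, adjusted p = 0.0557, limma). Without the first treated L428 array its adjusted p was 0.00872.

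SPRED2 rose from 7.74, 6.82 and 7.09 to 8.29, 8.76 and 8.61, by 1.34 ± 0.23 (SE, adjusted p = 0.00602, limma). Its treated level, 8.56 ± 0.24 (SD, n = 3), was just below that of untreated L428, 9.21 ± 0.20. SPRED1 rose from 7.26, 6.47 and 6.52 to 7.54, 8.62 and 8.47, by 1.46 ± 0.31 (SE, adjusted p = 0.0142, limma), and stayed under all L428 arrays. SPRY1 read 5.52, 5.67 and 4.66 before and 5.93, 6.48 and 6.35 after. Its treated arrays were above the untreated ones, but the change of 0.97 ± 0.33 (SE) was not called (adjusted p = 0.0873, limma). SPRY2 read 2.92 on all 3 untreated arrays and 2.89, 2.83 and 2.84 after the drug. Values at that low end have no order, and the change was -0.06 ± 0.07 (SE, adjusted p = 0.545, limma).

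These L1236 calls rest on few arrays. Without untreated array 2 or 3, or treated array 2 or 3, of L1236, 2 of the 10 genes were called in each case. The share of all genes called was then 7.62% to 8.4%, against 14.9% with all arrays. DUSP2 lost its call without any L1236 array but the first treated one (adjusted p 0.0654 to 0.0951), DUSP4 without untreated L428 array 2 or any L1236 array but that one (0.0516 to 0.118), and DUSP5 and SPRED1 without those 4 arrays (0.0909 to 0.102 and 0.0559 to 0.0596, limma). DUSP6 and SPRED2 kept theirs without each of the 12 arrays. Without the 4 arrays numbered 1 the calls covered 9 of the 10 genes, all but SPRY2, where 34.5% of all genes were called. Without untreated L1236 array 1, whose labels conflict, 4 genes were called in L1236, 3 in the difference between the lines and 5 between the untreated lines. Of all genes, 11.6%, 3.7% and 25% were called in that setting.

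Markers of other cell types were read on the same arrays. In L1236, 2 of 6 T-cell markers were called higher after the drug: CD3D went from 4.13 to 6.56 and CD8A from 1.97 to 5.33 (group means), and the summed linear signal of the list went from 45 to 59 per array to 155 to 198. The other CD3 chains, CD3E and CD3G, had group means of 1.74 to 1.76 and 2.12 to 2.25 over the 4 groups. In the stromal and epithelial list 2 of 6 were called higher in L1236. EPCAM went from 2.83 to 8.20 and COL1A1 from 7.66 to 10.52, while COL1A2 read 2.44 to 2.49 in every group. PECAM1, the brightest of the list in untreated L1236, was not called. It read 11.18, 11.75 and 11.76 before and 11.58, 10.12 and 9.93 after. The summed signal of the list, PECAM1 included, was 2556 to 3767 before and 3023 to 4438 after. Of 5 myeloid markers 1 was called higher in L1236 (summed signal 49 to 50 before and 71 to 121 after), and CD14 read 2.26 to 2.28 in every group. In L428 the called counts were 1 of 6 T-cell, 0 of 5 myeloid and 0 of 6 stromal and epithelial markers (1, 0 and 2 at an unadjusted p, limma). Of all genes, 8.59% were called higher in L1236 and 3.32% in L428. The part of these markers in the changes above was not tested.

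**Figure D2:**
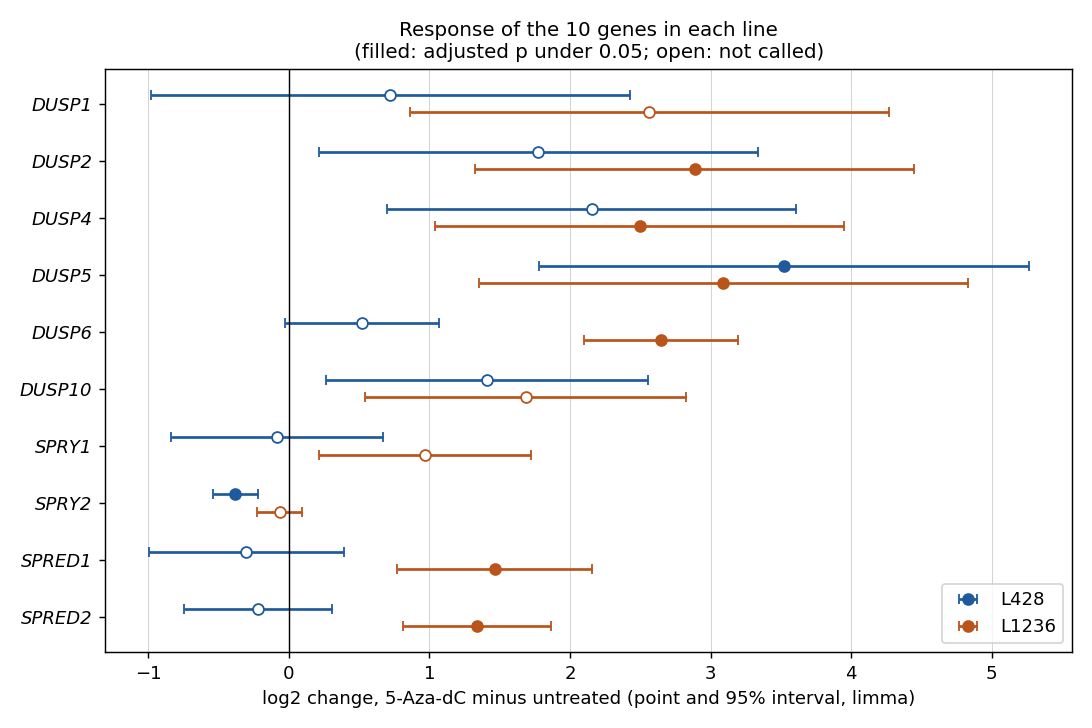
Log2 change of the 10 genes, treated minus untreated, in L428 and L1236, as the limma estimate with its 95% interval. Filled points have an adjusted p under 0.05: DUSP5 and SPRY2 in L428, and DUSP2, DUSP4, DUSP5, DUSP6, SPRED1 and SPRED2 in L1236.

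The change in L1236 was then set against the change in L428 with an interaction term in the same fit. DUSP6 and SPRED2 responded more strongly in L1236, and the other 8 genes did not pass the test. Over all genes 4.62% were called, 2.66% with a larger and 1.96% with a smaller value in L1236. The median difference was 1.081 over the 10 genes and -0.009 over all genes.

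For DUSP6 the log2 changes of 2.65 in L1236 and 0.52 in L428 differed by 2.13 ± 0.34 (SE, adjusted p = 0.0108, limma), a 4.37-fold larger change. The call held without each of the 12 arrays, with values between 1.85 and 2.33 over 21 alternatives. It was lost with a separate replicate block in each line (adjusted p = 0.0633), an alternative chosen after the data were seen. For SPRED2 the difference was 1.56 ± 0.33 (SE, adjusted p = 0.0326, limma). The SPRED2 call was lost without any of 8 arrays, all those numbered 2 or 3 (adjusted p 0.063 to 0.088, limma). It was also lost with the replicate number as a block (0.0651) and with a block in each line (0.148). It held in 10 of 21 alternatives, over which the difference ran from 0.61 to 2.15.

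SPRED1 came close, at 1.77 ± 0.43 (SE, adjusted p = 0.0569, limma), and was called without untreated L1236 array 1 (0.0366) or treated L1236 array 1 (0.00639). For SPRY2 the difference was 0.32 ± 0.10 (adjusted p = 0.132), with the gene at the low end in L1236. SPRY1 stood at 1.05 ± 0.47 (0.306), DUSP1 at 1.84 ± 1.06 (0.462) and DUSP2 at 1.11 ± 0.97 (0.706). With the replicate number as a block the DUSP1 difference was called (adjusted p = 0.0247, limma). For DUSP5 the difference was -0.43 ± 1.08 with a 95% interval from -2.89 to 2.03, so a response several-fold larger in either line is within its error. DUSP4 (0.34 ± 0.91) and DUSP10 (0.28 ± 0.71) likewise had small differences with wide errors.

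The mean log2 signal of the 6 DUSP genes was 7.80, 8.53 and 8.77 on the untreated L428 arrays and 8.96, 10.70 and 10.49 on the treated ones. In L1236 it went from 7.71, 7.52 and 7.81 to 9.52, 10.52 and 10.69. Both lines thus ended in the same range, and array 1 was the lowest treated array in each. The mean of the 4 SPRY and SPRED genes was 8.60, 8.77 and 8.88 in untreated and 8.47, 8.54 and 8.51 in treated L428, so the treated arrays lay just below. In L1236 it was 5.86, 5.47 and 5.30 before and 6.16, 6.67 and 6.57 after. That mean was below the L428 arrays on all 6 L1236 arrays, with SPRY2 at the low end of the scale in it, while SPRY1 in treated L1236 (5.93 to 6.48) lay inside its L428 range (5.69 to 6.88).

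Among all 19775 genes, the changes of the 6 DUSP genes in L1236 ranked between the 95.9th percentile (DUSP10) and the 98.6th (DUSP5). In L428 they ranked between 88.4 (DUSP6) and 99.3 (DUSP5). SPRED1 and SPRED2 ranked at 95.1 and 94.6 in L1236 and at 16.4 and 20.2 in L428. SPRY1 ranked at 91.9 and 29.5, and SPRY2 at 35.5 and 13.2. These ranks count dim genes too, and ranks without them were not computed. With a minimum mean of 4, 28.6% of the genes kept were called in L1236 and 11.5% in L428, against 14.9% and 4.65% of all genes.

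**Figure D3:**
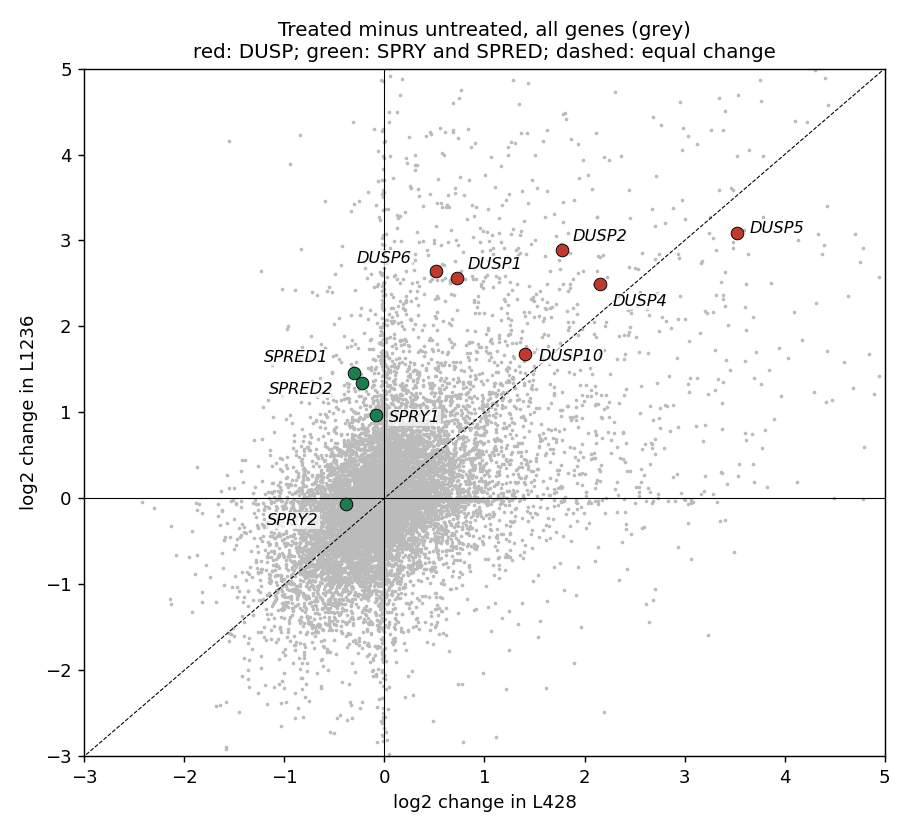
Log2 change in L1236 against log2 change in L428 for all 19775 genes (grey) with the DUSP genes in red, the SPRY and SPRED genes in green and a dashed line of equal change; 147 genes lie outside the axes. DUSP4, DUSP5 and DUSP10 sit near the line, while DUSP6, SPRED1 and SPRED2 lie above it, between -0.30 and 0.52 in L428 and between 1.34 and 2.65 in L1236.

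Several of the genes have more than 1 probe set, and these did not always move together. In a separate fit over 54613 probe sets, 8 of the 22 were called higher in L1236 and none lower. The shares over all probe sets were 9.02% called, 4.58% higher and 4.44% lower. In L428 2 were called higher and 1 lower, against 3.02% of all probe sets, 1.82% higher and 1.2% lower. For the difference between the lines 4 were called, all with the larger value in L1236, against 2.57%, with 1.42% larger and 1.15% smaller. Between the untreated lines 1 was higher and 9 lower in L1236, against 21.1%, with 11.2% higher and 9.89% lower.

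All 3 DUSP6 probe sets were called higher in L1236, with changes of 2.65, 2.38 and 2.96, and all 3 differences between the lines were called (2.13, 1.78 and 2.03). In L428 they changed by 0.52, 0.60 and 0.93, and the last, 208893_s_at, was called (adjusted p = 0.033, limma). Its arrays read 10.52, 9.98 and 10.29 before and 11.23, 11.20 and 11.16 after, without overlap, where the brightest probe set overlapped. The call for DUSP6 in L428 thus depended on the probe set.

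The second DUSP10 probe set, 221563_at, followed the first, with 1.22 in L428 and 1.5 in L1236. All 3 DUSP4 probe sets moved up in both lines (1.31 to 2.16 in L428 and 1.12 to 2.50 in L1236), with the brightest called in L1236. However, 226034_at started at 1.92 in both lines, at the low end, so its changes are uncertain in size. The groups of 204014_at, which started at 3.32 in L1236, overlapped in that line. The DUSP1 probe set 201044_x_at changed by 1.19 in L428 and 2.23 in L1236, and 226578_s_at read 1.93 to 2.15 on all 12 arrays. For SPRED1, 244439_at changed by 1.60 and 235074_at by 0.65 in L1236, and neither was called. The SPRY1 probe set 230212_at did not follow the brighter one in L1236: it read 4.30, 4.39 and 4.40 before and 4.39, 4.37 and 4.35 after (0.01 ± 0.33, SE, adjusted p = 0.99, limma). The other 2 SPRED2 probe sets read 2.07 to 4.09 and changed by 0.16 and -0.03 in L1236, so the SPRED2 response rests on 212458_at. With the mean of all probe sets in place of the brightest, SPRED2 changed by 0.49 in L1236 (adjusted p = 0.0515).

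**Figure D4:**
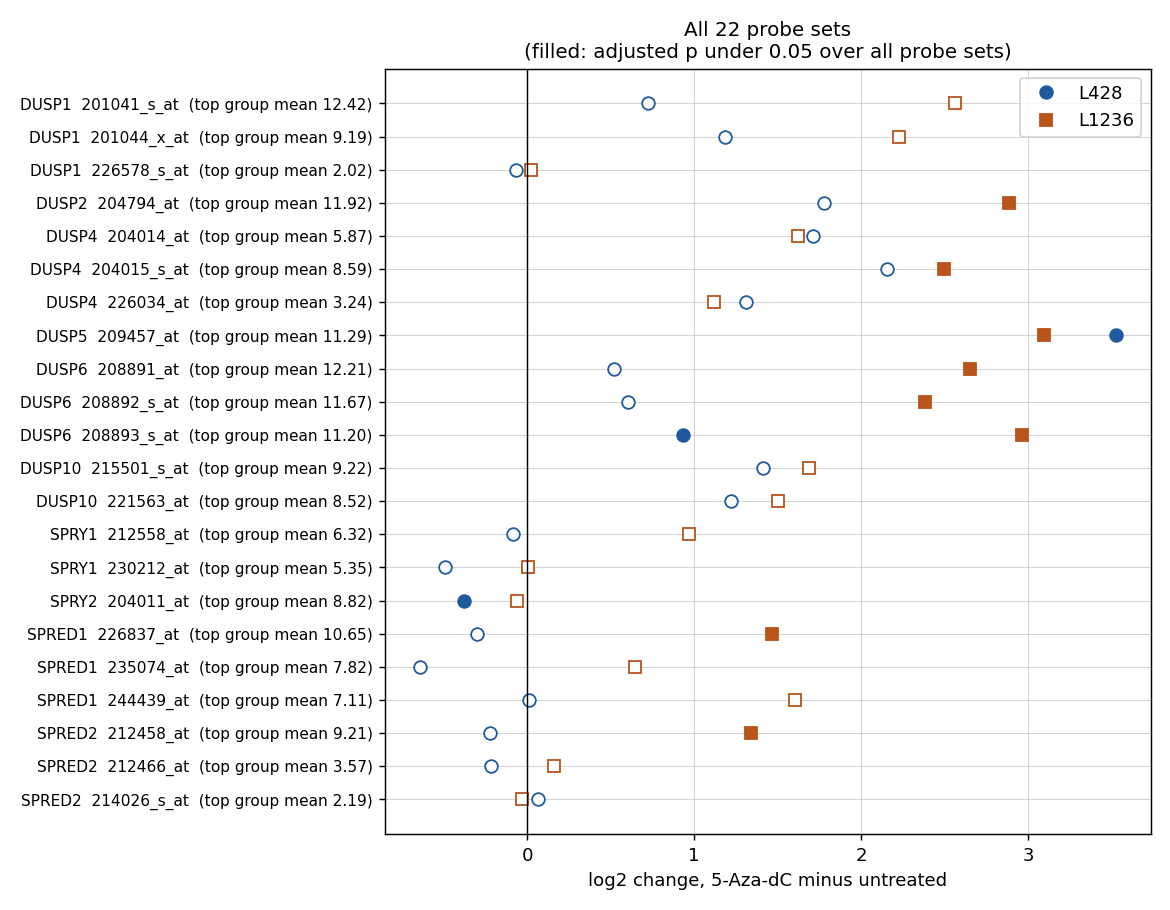
Log2 change, treated minus untreated, of all 22 probe sets in L428 (circles) and L1236 (squares), filled where the adjusted p over all probe sets is under 0.05, with the highest of the 4 group means beside each identifier. The 3 DUSP6 probe sets lie together in L1236, from 2.38 to 2.96, while 226578_s_at of DUSP1 and 214026_s_at of SPRED2 stay near 0 with a top group mean of 2.02 and 2.19.

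The genes around these inhibitors were read from 5 lists with 72 names, of which 62 were measured on a probe set with 1 symbol. In L1236 15 of the 62 were called higher and 5 lower, against 8.59% and 6.35% of all genes. In L428 4 were called higher and 1 lower, against 3.32% and 1.34% of all genes. That total of 5 became 15 without the first treated L428 array (17.9% of all genes called) and 9 with the replicate block (5.71%). It became 2 without untreated L428 array 1 (5.25%) or treated L428 array 2 (1.96%). It became 1 without untreated L428 array 2 (2.39%) or 3 (2.31%) or treated L428 array 3 (1.86%). It was 3 without untreated L1236 array 1 (3.94%) or 2 (3.23%) or treated L1236 array 2 (3.12%). When limma was fitted to the compared groups only, the total was 0 and 1.04% of all genes were called, while 18 pathway genes had an unadjusted p under 0.05.

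Genes that ERK is known to induce gave 9 of the 15 higher calls in L1236 and 3 of the 4 in L428. In L1236 9 of 14 were called higher and 0 lower (11 and 0 at an unadjusted p, limma), with a median change of 1.547. PHLDA1 rose from 7.14, 6.16 and 6.29 to 9.54, 10.88 and 10.80, by 3.88 ± 0.38 (SE, adjusted p = 0.000341, limma). EPHA2, a receptor kinase, read 2.74, 2.74 and 2.75 before and 4.82, 6.19 and 6.43 after, a rise from the low end of the scale (adjusted p = 0.000627). IER3, an immediate-early gene, rose by 3.75 ± 0.54 (adjusted p = 0.0025), from 10.72, 9.75 and 9.62 to 13.06, 14.12 and 14.15. The other called targets, named after their calls were seen, were EGR1, FOS, FOSL1, IER2, ETV5 and MYC, with changes from 1.09 to 4.65.

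In L428 3 of the 14 targets were called higher, with a median change of 0.848. IER3 rose by 2.71 ± 0.54 (SE, adjusted p = 0.0267, limma), MYC by 1.12 ± 0.25 (0.0408) and CCND1, cyclin D1, by 2.06 ± 0.48 (0.0458). IER3 and MYC were thus called in both lines. The response of PHLDA1 was larger in L1236, by 3.57 ± 0.54 (adjusted p = 0.00879, limma), and so was that of EPHA2, by 3.08 ± 0.48 (0.00952). PHLDA1 was also lower in untreated L1236, by a log2 difference of -4.42 ± 0.38 (adjusted p = 2.44e-05).

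Of the other Sprouty and RAS-ERK inhibitors, 1 of 10 in L1236 was called higher and 1 lower, and in L428 none (2 higher and 2 lower at an unadjusted p, limma), where RASA2 had the smallest p (-0.68 ± 0.18, adjusted p = 0.0664). SPRY4, a paralogue of SPRY1 and SPRY2, read 3.23, 3.23 and 3.21 in untreated L1236 and 4.24, 6.56 and 6.41 after the drug (2.52 ± 0.50, SE, adjusted p = 0.0119). In L428 it read 3.39 to 3.52 throughout, and the difference between the lines was not called (adjusted p = 0.0932). PAQR3, which holds RAF at the Golgi, fell by 0.69 ± 0.18 in L1236 (adjusted p = 0.0371). ERRFI1, a feedback inhibitor of the EGF receptor named here after its values were seen, read 2.16 to 2.18 on all 6 untreated arrays, 2.96, 7.60 and 7.29 in treated L428 and 4.70, 5.54 and 6.07 in treated L1236. The treated arrays lay above the untreated ones in both lines, but neither 3.78 ± 1.04 in L428 nor 3.28 ± 1.04 in L1236 was called (SE, adjusted p = 0.0803 and 0.0675, limma), and both start from the low end of the scale.

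Of 10 other MAP kinase phosphatases, 2 were called lower and 0 higher in L1236 (2 higher at an unadjusted p), and 1 was called higher in L428. PTPRR, a receptor-type tyrosine phosphatase that inactivates ERK, read 8.18, 8.99 and 9.04 in untreated L1236 and 4.63, 3.09 and 3.12 after the drug. It fell by 5.13 ± 0.55 (SE, adjusted p = 0.000541, limma), to the level of L428 (3.29 to 4.92). The difference from the L428 response was -5.08 ± 0.78 (adjusted p = 0.00919). PTPN5 fell by 1.07 in L1236, from 3.35 to 2.27, near the low end. DUSP16, a JNK phosphatase, rose in L428 from 5.90, 5.08 and 4.92 to 7.26, 8.13 and 8.18 (2.56 ± 0.50, adjusted p = 0.0229). PTPN7, a phosphatase of blood cells, read 2.51 to 2.76 in untreated L428 and 8.47 to 9.28 in untreated L1236.

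In the cascade itself, from adaptors to ERK, 4 of 18 genes were called higher and 1 lower in L1236, and none in L428 (1 higher and 6 lower at an unadjusted p, limma, with MAP2K2 first at -0.67 ± 0.18, adjusted p = 0.0728). KSR1, the scaffold of RAF and MEK, was lower in untreated L1236 by -4.66 ± 0.17 (adjusted p = 7.23e-08) and rose there by 1.17 ± 0.17 (0.00232). GAB2, an adaptor, fell by 1.32 ± 0.25 in L1236 (adjusted p = 0.00827), and SHOC2, which helps activate RAF, rose by 0.43 ± 0.08 (0.0101). All 3 differed between the lines in response, by 1.53, -1.59 and 0.64. A pair of RAS exchange factors split the untreated lines: RASGRP3 was lower in L1236 by -5.05 ± 0.31 and RASGRP1 higher by 2.20 ± 0.15. Among 10 other MAP kinases and their activators, 1 was called higher and 1 lower in L1236 and 0 higher and 1 lower in L428 (1 and 2 at an unadjusted p). MAP2K6, which activates p38, fell by 2.55 ± 0.35 in L1236 (adjusted p = 0.00185), MAPK7 (ERK5) rose by 1.14 ± 0.32 (0.0428), and MAP2K4 fell by 0.47 ± 0.07 in L428 (0.00594).

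The genes whose levels ran most like each member over the 12 arrays were found by the root mean square difference in log2 signal, after each gene was centred on its own mean. The closest to DUSP6 was DAPK1, with a difference of 0.232 and group means of 11.59, 11.98, 8.30 and 10.87 (untreated and treated L428, untreated and treated L1236), followed by EMP2 (0.359) and LAPTM5 (0.367). SPRED2 ran with STAT3 (0.185; group means 12.21, 12.14, 10.15 and 11.39), AXIN2 (0.219) and TTC39A (0.233). Nearest to SPRED1 were PRDM1 (0.350), PTK2 (0.362) and PAWR (0.402). SPRY2 ran with GALNT14 (0.204), SMG6 (0.244) and CERS6 (0.249), all near the low end in L1236.

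DUSP5 had no gene as close. Its nearest was CD274, which encodes PD-L1, at 0.631 with group means of 6.25, 8.90, 10.11 and 12.25, then EDARADD (0.731) and MXD1 (0.742). These differences stand against a span of 6.47 between the highest and lowest group mean of DUSP5. DUSP4 ran with TNFSF4 (0.428), TRIB1 (0.535) and PDLIM1 (0.566), and DUSP2 with LINC00158 (0.442), NEU1 (0.450) and RND1 (0.483). DUSP1 was closest to EPOP (0.410), TUBB3 (0.480) and ERN1 (0.499), and DUSP10 to STMN4 (0.404), LOC100422526 (0.411) and IRF8 (0.418). For SPRY1, whose group means span 1.04, the nearest were SNX11 (0.260), PLXNA1 (0.260) and GRINA (0.264). All 12 arrays enter each value, and the gap between the lines counts in it together with the drug.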

How the data were processed

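RNA of 12 samples, 3 each of untreated and 5-Aza-dC-treated L428 and L1236, was measured on expression arrays. For each array and probe set the authors deposited a log2 signal from robust multichip averaging (RMA), per the labels and the submitters' processing notes. The RMA version is not given in the sources used here, nor is any further scaling. The labels describe a whole-transcript chip, yet the identifiers in the table belong to a 3′ expression chip, and the table was followed. Detection calls and scanner output were not used here, so the lower end of the scale was judged from the values.

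Of 54675 probe sets, 62 are controls, 41091 have a single gene symbol, 1801 more than 1, and 11721 lack one. RefSeq (GRCh38.p14) held 41037 of the single-symbol ones by Entrez identifier. Each gene is read from its brightest probe set by mean signal. limma 3.58.1 in R 4.3.3 fitted 4 group means to all arrays, with moderated variances (eBayes) and Benjamini-Hochberg adjusted p-values across 19775 genes or 54613 probe sets. Calls are two-sided at an adjusted p under 0.05. An exact permutation test of 3 against 3 arrays cannot go below 0.1 and was not used. The scripts were tested on simulated data. The members, lists and tests were chosen with earlier results of these data known. Named genes are the members, up to 3 called genes per pathway list and comparison (else the one with the smallest p), and the 3 genes nearest to each member whose group means span at least 1 log2 unit. Promoter sequences come from RefSeq.

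Groups were taken from the sample descriptions, and no sample was left out. Arrays of the same number deviated together from their group means in L428 (correlations 0.25, 0.169 and 0.164) and between the untreated lines (0.36, 0.203 and 0.107) but not in L1236 (0.049, -0.018 and 0.063), which meets the rule used for pairing (every correlation over 0.1) in the first 2 comparisons, on the data alone. The highest correlation with another number was -0.217, 0.173 and 0.161 in L428 and -0.196, 0.19 and 0.275 between the untreated lines, so only array 1 stood clearly with its own number. Alternatives were each array left out, the replicate number as a block, all arrays numbered 1 left out, only the compared groups, median centring, quantile normalization, a minimum mean of 4, array weights, the mean of probe sets and a moderation trend. The number of arrays limits the precision.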

Additional observations from a re-analysis of the deposited data

Results flagged for a closer look

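A pair of genes responded differently in the 2 lines by the test of the difference itself. DUSP6 changed more in L1236 than in L428 by 2.13 ± 0.34 on the log2 scale (SE, adjusted p = 0.0108, limma). On its brightest probe set treated arrays were above untreated ones in 3 of 3 L1236 arrays, and the groups overlapped in L428. On 208892_s_at and 208893_s_at the treated L428 arrays were above the untreated ones too, and 208893_s_at was called higher there (adjusted p = 0.033, limma). SPRED2 changed more in L1236 by 1.56 ± 0.33 (SE, adjusted p = 0.0326, limma), again with all 3 treated L1236 arrays above the untreated ones. The SPRED2 result rests on 212458_at. Its call was lost without any of 8 arrays and held in 10 of 21 alternatives.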

How the results depend on the processing

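No called change of the 10 genes turned its direction under any alternative, and of 860 gene-level comparisons with an alternative 729 kept their side of the threshold, 61 gained a call and 70 lost it. Leaving out 1 array at a time gave 0 to 5 called genes of the 10 in L428, 2 to 8 in L1236, 1 to 3 for the difference between the lines and 5 to 7 between the untreated lines. Of the 62 pathway genes the ranges were 1 to 15, 9 to 28, 4 to 15 and 20 to 28, against 5, 20, 7 and 24. Of all genes they were 1.86% to 17.9%, 7.62% to 22.7%, 2.24% to 10.7% and 24.6% to 31.5%. In L428 the 10 genes gave 2 calls in the fit reported, 4 with the replicate block, 7 without the arrays numbered 1, 6 with array weights, 1 with a moderation trend, 1 with a replicate block in each line (chosen after the data were seen) and 0 with only the compared groups (3 at an unadjusted p under 0.05, limma). The pathway genes in L428 gave 9 calls with the replicate block, 28 without the arrays numbered 1, 10 without dim genes, 27 with array weights and 0 with only the compared groups (18 at an unadjusted p). In L1236 the pathway genes gave 37 calls without the arrays numbered 1 and 39 with array weights. For the difference between the lines, the 10 genes gave 5 calls without the arrays numbered 1, 7 with array weights and 1 with a block in each line, and the pathway genes 28, 23 and 2. Between the untreated lines the pathway genes gave 37 calls without the arrays numbered 1. The share of all genes called moved too: without the arrays numbered 1 it was 28.9% in L428, 34.5% in L1236, 23.8% for the difference and 37.9% between the untreated lines, and with array weights 33.2%, 49.2%, 28.9% and 44.3%, against 4.65%, 14.9%, 4.62% and 28.8%. With only the compared groups it was 1.04% in L428. In the same line it was 5.71% with the replicate block, 4.57% with a moderation trend and 4.3% with a block in each line. Without dim genes it was 11.5% of the genes kept in L428. The cause of these shifts was not tested. In L1236, where the numbers do not pair the arrays, the replicate block gave 7 of the 10 genes, adding DUSP1 (adjusted p = 0.000651, limma). Of all genes, 17.5% were called in that setting. With a block in each line, SPRED1 and SPRED2 lost their L1236 calls (0.0815 and 0.0509) and DUSP1 and DUSP10 gained one (0.00205 and 0.0469, limma). The total in L1236 stayed at 6 of the 10 genes, where 12.7% of all genes were called. For the difference between the lines, the gene called in that setting was DUSP1 (0.0247), with 2.51% of all genes. Outside the calls named with the results, the replicate block changed no call of the 10 genes. Median centring and quantile normalization moved the median change of all genes by at most 0.017. In L1236 they gave 8 and 7 calls of the 10 genes, against 6, where 19.8% and 16.2% of all genes were called. There the 10 genes gave 9 calls without dim genes (28.6% of the genes kept), 9 with array weights and 8 with a moderation trend (15.3%). Slide or scan date could not be used as a block, since neither is given in the sources used here, and the block in each line could not be fitted to the untreated comparison. Values near the low end of the scale limit SPRY2 in L1236 and the dim probe sets.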
